A study of Mus musculus with 29 samples.

Results

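The hearts described here were the 10 of the C26_REV-ERBa group, ranked by their own Serpina3n and set against each other. For each heart the Serpina3n read count was divided by the library's total count and scaled to CPM, so that libraries of unequal depth can be compared. The 5 hearts with the most Serpina3n are called the high-Serpina3n hearts and the 5 with the least the low-Serpina3n hearts, out of 29 hearts in the series. The hearts were therefore selected on a measured value and not on a treatment, since all 10 had received the same one. A p-value for another gene says how strongly that gene varied with this ranking and says nothing of a treatment. Serpina3n itself is given as a description, with no test.

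All animals were wildtype BALB/c mice, and each library came from the heart of 1 animal. C26_REV-ERBa mice had received an adeno-associated virus that carried REV-ERBα behind the hepatocyte promoter Tbg, so that the vector was aimed at the liver and not at the heart. They were then inoculated with C26 colon carcinoma cells 10 days later. The other groups were C26_GFP (10 hearts, the same tumour with a Tbg vector for green fluorescent protein), PBS_REV-ERBa (5 hearts, the REV-ERBα vector with saline in place of the tumour) and PBS_GFP (4 hearts, the GFP vector with saline). Total RNA was sequenced without selection of polyadenylated transcripts. The libraries held 3376113 to 7619837 counts in the high-Serpina3n hearts and 6273269 to 7200391 in the low-Serpina3n hearts, and 3207497 to 16853646 over the series. At these depths a gene at 1 CPM rests on a handful of reads.

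Serpina3n encodes a secreted inhibitor of serine proteases that belongs to the acute phase response to inflammation. Many genes of this response, though not all, are switched on when interleukin-6 family cytokines act through STAT3. Glucocorticoids, the adrenal stress hormones, also raise Serpina3n through their receptor, and the 2 signals act together on many genes of this kind. C26 tumours are a standard model of cachexia, in which inflammation and stress hormones accompany the loss of muscle, fat and heart mass.

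Serpina3n formed a gradient over the 10 hearts. In the high-Serpina3n hearts Serpina3n stood at 256, 246, 200.4, 179 and 165 CPM (replicates 2, 5, 9, 6 and 8), and in the low-Serpina3n hearts at 136, 121, 77.8, 70.6 and 39.6 CPM (replicates 3, 10, 4, 1 and 7). The mean was 209 ± 40.4 CPM in the high-Serpina3n hearts and 89.0 ± 39.1 CPM in the low-Serpina3n hearts (SD, n = 5 each). The dividing line fell between replicate 8 at 165 CPM and replicate 3 at 136 CPM. In C26_GFP, split in the same way, the values were 762, 648, 611, 541 and 404 CPM in the high-Serpina3n hearts against 398, 240.5, 239.8, 223 and 218 CPM in the low-Serpina3n hearts. Tumour-free hearts had 7.10 to 19.3 CPM in PBS_REV-ERBa and 8.65 to 23.0 CPM in PBS_GFP, so that every C26_REV-ERBa heart, the lowest included, lay above all 9 of them.

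**Figure D1:**
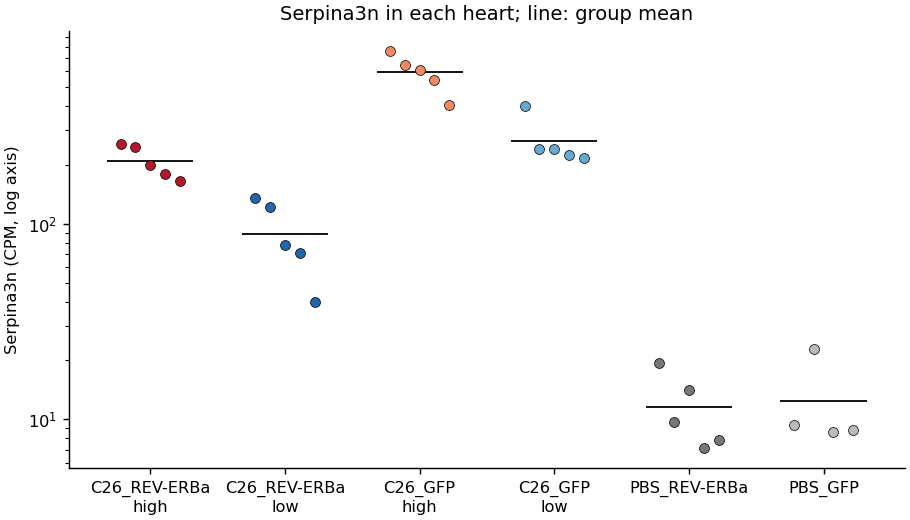
Serpina3n in CPM (log axis) in each heart, with a line at the mean of each group. Points are single hearts; the C26_REV-ERBa hearts run from 256 to 39.6 CPM, and the dividing line falls between 165 and 136 CPM, while tumour-free hearts of both vectors stay at or below 23.0 CPM.

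Some traits of these libraries have to be known before the results. A mean log2 CPM over 12 cardiomyocyte markers was 10.8 to 11.1 in the high-Serpina3n hearts and 11.1 to 11.2 in the low-Serpina3n hearts, and these markers were abundant in every library. The means were 10.99 ± 0.125 in the high-Serpina3n hearts and 11.15 ± 0.0523 in the low-Serpina3n hearts (SD, n = 5 each, exact two-sided permutation test, p = 0.0238, adjusted p = 0.405 over 17 measures, the smallest p that 5 against 5 allows being 0.00794). Markers of the C26 tumour's epithelial origin were so low that none of the 8 could be tested. The score of 9 atrial markers exceeded 5 in replicates 5 and 9 of the high-Serpina3n hearts and in replicates 10 and 4 of the low-Serpina3n hearts, and replicate 9 also had an adipocyte score of 5.13, while the low-Serpina3n hearts ran from -0.98 to 1.15. The score of 13 hepatocyte markers was 1.78, 0.743, 0.886, -0.489 and -0.588 in the high-Serpina3n hearts, in the order of the ranking, and 2.48, 3.30, 1.42, -0.547 and -0.632 in the low-Serpina3n hearts. It was highest in replicates 10 and 3, the sets overlapped, and none of its 6 tested markers passed. Its best-known gene, Alb, serum albumin, had 0.568 to 8.02 CPM in the high-Serpina3n hearts and 0.277 to 37.95 CPM in the low-Serpina3n hearts. Serpina3n, Lrg1 and the metallothioneins are also strongly expressed in liver. Replicate 8 was the shallowest library. None of the 17 measures passed after adjustment, but with 5 against 5 hearts the smallest possible p leaves almost no measure able to pass, so this says nothing of whether they differed.

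Between the high-Serpina3n and the low-Serpina3n hearts, 131 genes were higher and 131 lower at an adjusted p under 0.05 among 12366 genes tested, a background of 1.06% higher and 1.06% lower. Of the 12366 log2 changes, 50.2% were positive. The counts given below for lists of genes are to be read against these shares. Members of a list can vary together over the same 10 hearts. The differences were moderate: the median log2 change was 0.464 among the 131 higher genes and -0.544 among the 131 lower ones, and 17 and 13 of them differed by more than 2-fold. Metallothioneins, glucocorticoid-responsive genes, acute phase genes, the lipid genes Ppargc1a, Lpl, Acot1 and Pnpla2 and the cell cycle inhibitor Cdkn1a were among the higher ones. Among the lower ones were the apelin ligand and its receptor, smooth muscle actin, cardiac actin, the calcium-store gene Casq2 and the pacemaker gene Hcn4. At an unadjusted p under 0.05 there were 2352 genes, and in 606 genes (4.9%) the 2 sets of hearts did not overlap. The count of 262 depended on single hearts: it was 22, 23, 26 and 21 without replicates 1, 2, 4 and 7, 73, 109 and 174 without replicates 6, 10 and 5, and 546 without replicate 3, the low-Serpina3n heart nearest the dividing line. As a covariate, the hepatocyte score gave 523 genes, the atrial score 333, the macrophage score 296 and the library total 162. Without the 4 hearts high in atrial markers it was 3, and without replicates 8 and 9 it was 159. All 262 genes had the same sign of change in each of those fits. The part of the other marker scores was not tested. Of 52 named genes that passed, 46, 47, 45 and 47 lost the call without replicates 1, 2, 4 and 7 (highest adjusted p = 0.125). Nrep, Mylip, Ppargc1a and Pfkfb3 were the named genes that passed whichever of the 10 hearts was left out.

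Nr1d1, the mouse gene of REV-ERBα, showed no detected difference between the sets. It averaged 166 ± 52.2 CPM in the high-Serpina3n hearts and 165 ± 37.2 CPM in the low-Serpina3n hearts (SD, n = 5 each), a log2 change of 0.00 ± 0.20 (SE, adjusted p = 0.999), and under other settings the change ran from -0.45 to 0.24. The sequence of the vector was not analysed here, so these counts speak for the heart's transcripts as the deposited table counts them.

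Of all the lists, known glucocorticoid receptor targets had the most genes that passed. Of 24 tested, 7 were higher and none lower, 21 had a positive change, and the list's median log2 change was 0.432, against 0.00 over all genes. The 7 were Mt2 and Mt1, small proteins that bind zinc and copper, Sult1a1, a sulfotransferase, Lox, a lysyl oxidase that cross-links collagen, Glul, glutamine synthetase, Cdkn1a, an inhibitor of cyclin-dependent kinases, and Plin4, a lipid droplet coat protein. Glul and Plin4 were picked out after their values were seen. The lists share members: Mt2 and Mt1 were also the 2 metallothionein and metal transport genes that passed. Lox was the 1 of the collagen and matrix list, and Cdkn1a the 1 of the p53 and growth arrest list. The lists were chosen with earlier results of these data known, so their ranking is a description.

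In the order of the Serpina3n ranking, here and below, Mt2 had 29.9, 29.7, 19.6, 24.4 and 21.0 CPM in the high-Serpina3n hearts, against 15.6, 9.11, 9.44, 9.46 and 4.30 CPM in the low-Serpina3n hearts. The sets did not overlap, and the log2 change was 1.40 ± 0.24 (SE, adjusted p = 0.0183). Mt1 had 78.2, 75.0, 59.9, 65.8 and 58.6 CPM in the high-Serpina3n hearts and 55.1, 37.5, 34.7, 31.0 and 20.2 CPM in the low-Serpina3n hearts, also without overlap (log2 change 0.93 ± 0.19, adjusted p = 0.0294). Reads of Mt1 and Mt2 may be shared in part, since the genes are close copies. In tumour-free PBS_REV-ERBa hearts Mt2 averaged 2.41 ± 0.161 CPM and Mt1 17.7 ± 1.83 CPM (SD, n = 5). The highest of these hearts had 2.67 CPM of Mt2, below all 10 tumour-bearing hearts, and 20.25 CPM of Mt1, level with the lowest low-Serpina3n heart.

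Cdkn1a had 74.8, 77.3, 110.6, 48.0 and 69.8 CPM in the high-Serpina3n hearts, against 61.6, 18.1, 18.3, 20.7 and 17.7 CPM in the low-Serpina3n hearts (log2 change 1.5 ± 0.33, adjusted p = 0.0368). Of the low-Serpina3n hearts, 4 were near the 13.8 to 19.6 CPM of tumour-free PBS_REV-ERBa hearts, and replicate 3, the one with the most Serpina3n, stood among the high-Serpina3n hearts. Sult1a1 was even in the high-Serpina3n hearts at 52.4 to 56.5 CPM and ran from 23.7 to 46.8 CPM in the low-Serpina3n hearts (log2 change 0.77 ± 0.14, adjusted p = 0.0205). Lox had 8.51 to 19.0 CPM in the high-Serpina3n hearts and 3.19 to 8.05 CPM in the low-Serpina3n hearts (log2 change 1.22 ± 0.26, adjusted p = 0.0326). Glul had 1632 to 1865 CPM in the high-Serpina3n hearts and 1012 to 1613 CPM in the low-Serpina3n hearts, with a log2 change of 0.50 ± 0.11 (adjusted p = 0.0355).

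The acute phase list, which also holds genes downstream of STAT3, had fewer members that passed. Of 30 tested, 3 were higher and none lower, 22 had a positive change, and the median log2 change was 0.232. Lcn2, lipocalin-2, an iron-sequestering acute phase protein, had 5.69, 4.44, 9.01, 5.68 and 2.66 CPM in the high-Serpina3n hearts and 2.87, 1.52, 1.53, 1.02 and 0.554 CPM in the low-Serpina3n hearts. Only replicates 8 and 3, the pair at the dividing line, overlapped, and the log2 change was 1.92 ± 0.37 (adjusted p = 0.0254). Lrg1, a secreted leucine-rich glycoprotein, had 181 to 269 CPM in the high-Serpina3n hearts and 112 to 188 CPM in the low-Serpina3n hearts, with overlap (log2 change 0.75 ± 0.14, adjusted p = 0.0217). Osmr, the receptor subunit for oncostatin M, an interleukin-6 family cytokine, had 93.9 to 107 CPM in the high-Serpina3n hearts and 57.9 to 84.1 CPM in the low-Serpina3n hearts, without overlap (log2 change 0.45 ± 0.10, adjusted p = 0.0313). Socs3, the feedback inhibitor of this pathway, had 38.2 to 55.3 CPM in the high-Serpina3n hearts and 20.5 to 39.0 CPM in the low-Serpina3n hearts, and at an adjusted p of 0.0503 it stood just outside the threshold (log2 change 0.64 ± 0.16).

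The promoters of Serpina3n and Mt1 are shown because both hold a match to the glucocorticoid receptor motif, and that of Socs3 because it holds a match to the STAT motif. They are RefSeq windows of build GRCm38.p6, from 250 bases before to 50 after the transcription start, on the gene's strand: chr12:104406458-104406757 (plus strand), chr8:94178839-94179138 (plus strand) and chr11:117969317-117969616 (minus strand). Capitals mark the match.
Serpina3n: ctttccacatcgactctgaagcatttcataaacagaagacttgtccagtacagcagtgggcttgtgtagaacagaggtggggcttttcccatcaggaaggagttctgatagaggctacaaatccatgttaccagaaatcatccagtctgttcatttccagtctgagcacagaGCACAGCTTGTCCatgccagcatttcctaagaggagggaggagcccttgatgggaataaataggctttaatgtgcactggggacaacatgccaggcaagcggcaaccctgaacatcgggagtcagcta
Mt1: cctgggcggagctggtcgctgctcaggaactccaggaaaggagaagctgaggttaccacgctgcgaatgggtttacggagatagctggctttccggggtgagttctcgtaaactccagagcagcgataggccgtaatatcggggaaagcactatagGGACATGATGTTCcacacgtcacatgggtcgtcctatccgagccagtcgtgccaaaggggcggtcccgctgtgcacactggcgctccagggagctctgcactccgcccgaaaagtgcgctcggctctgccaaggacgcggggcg
Socs3: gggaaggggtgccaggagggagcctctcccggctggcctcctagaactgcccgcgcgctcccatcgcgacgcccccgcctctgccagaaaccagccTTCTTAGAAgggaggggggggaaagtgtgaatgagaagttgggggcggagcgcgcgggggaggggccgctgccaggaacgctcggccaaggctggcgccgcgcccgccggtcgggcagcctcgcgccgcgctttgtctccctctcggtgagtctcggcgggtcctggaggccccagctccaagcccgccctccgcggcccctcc
The Serpina3n match begins at -78, that of Mt1 at -94 and that of Socs3 at -154, counted from the start. The motifs searched on both strands were GNACA and TGTNC separated by NNN for the glucocorticoid receptor, TTCNNNGAA for STAT and TTGCNNAA for C/EBP, each counted on its own, so that matches of different motifs may share bases. Over 32851 promoters they occurred in 0.475%, 8.298% and 10.797%. Of the 131 genes higher in the high-Serpina3n hearts, 105 had a promoter in the table, and 2 of these genes (1.905%) held the glucocorticoid receptor motif, against 0 of 95 matched lower genes and 0.423% of the genes tested. The STAT motif was held by 4 of the higher genes (3.81%) and 8 of the lower ones (8.421%), against 8.391% of the genes tested. The promoters shown were picked for a match and are not all that hold one. Igtp, with 1 STAT match, and Sympk, with 2, are named below and not shown. Of the other glucocorticoid targets that passed, Mt2, Sult1a1, Glul, Cdkn1a and Plin4 had a promoter in the table and held no receptor match. The promoter of Lox, which also passed, is not reported here. Lcn2, Lrg1 and Osmr, the acute phase genes that passed, and Serpina3n held no STAT match, while Socs3, which holds one, did not pass. A match in such a window describes letters and not binding, and no match says only that these letters are not in this window.

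The largest rises among genes with a mean of at least 5 CPM were those of Pbld1, Cdkn1a, Mt2, Apod, Spock2, Lox, Cnksr1, Tcf23, Acot1 and Serpinb1c, with log2 changes of 1.69 to 1.09. Pbld1, a phenazine biosynthesis-like domain protein, had 10.3, 4.13, 8.85, 8.51 and 6.80 CPM in the high-Serpina3n hearts and 3.19, 3.80, 2.08, 1.89 and 1.11 CPM in the low-Serpina3n hearts. The sets did not overlap (log2 change 1.69 ± 0.31, adjusted p = 0.0203). Apod, a lipid-carrying apolipoprotein, had 34.0 to 71.0 CPM in the high-Serpina3n hearts and 12.2 to 28.8 CPM in the low-Serpina3n hearts. Spock2, an extracellular proteoglycan, had 35.4 to 93.6 CPM in the high-Serpina3n hearts and 13.2 to 32.2 CPM in the low-Serpina3n hearts. Both were highest in replicate 9. Tcf23, a helix-loop-helix transcription factor, had 26.5 to 36.9 CPM in the high-Serpina3n hearts and 8.45 to 21.8 CPM in the low-Serpina3n hearts. Mylip, an E3 ubiquitin ligase that marks the low-density lipoprotein receptor for degradation, had 84.6 to 102.0 CPM in the high-Serpina3n hearts and 45.0 to 69.4 CPM in the low-Serpina3n hearts, without overlap (log2 change 0.73 ± 0.11, adjusted p = 0.0126).

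**Figure D2:**
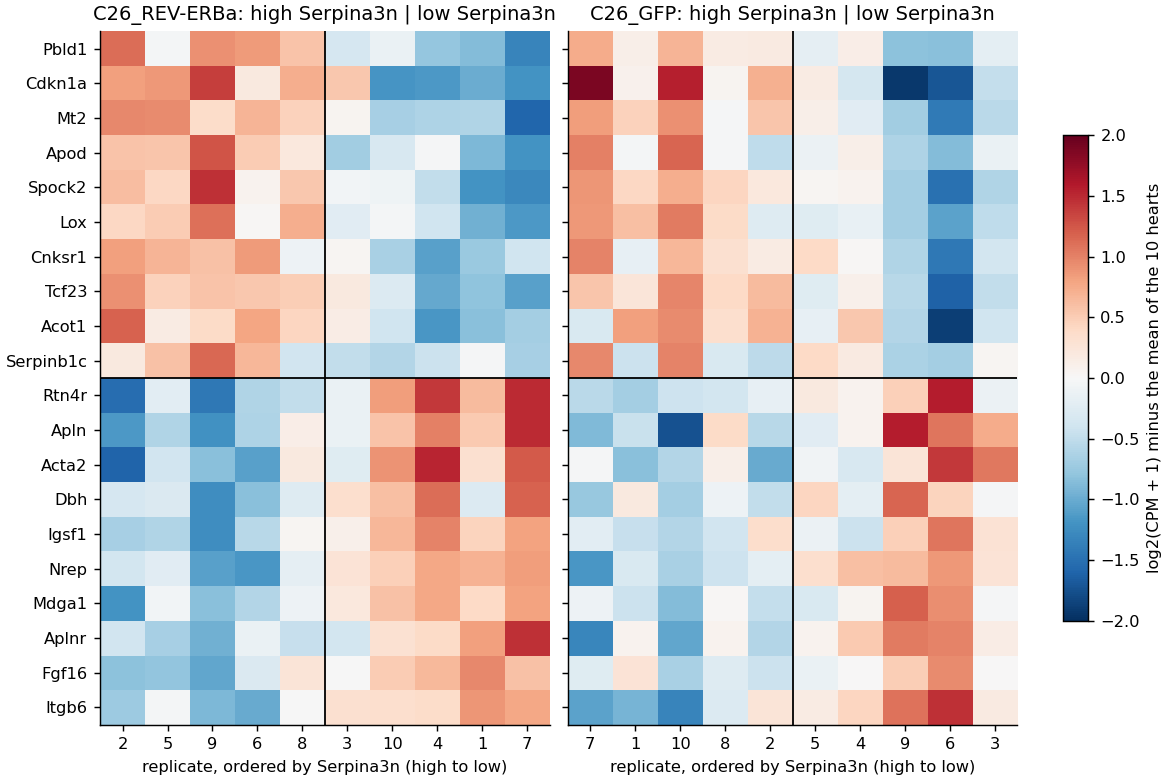
The 10 largest rises (upper rows) and 10 largest falls (lower rows) as log2(CPM + 1) minus the mean of the 10 hearts of a group, in C26_REV-ERBa (left, the hearts that chose the genes) and C26_GFP (right). Columns are hearts ordered by Serpina3n from high to low, and the vertical line separates the high-Serpina3n from the low-Serpina3n hearts; colours run from -2 (blue) to 2 (red), and replicate 3 of C26_REV-ERBa shows Cdkn1a (61.6 CPM) at the level of the high-Serpina3n hearts.

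The largest falls were those of Rtn4r, Apln, Acta2, Dbh, Igsf1, Nrep, Mdga1, Aplnr, Fgf16 and Itgb6, with log2 changes of -1.86 to -1.13. Apelin, encoded by Apln, is a peptide that strengthens contraction and widens vessels, and Aplnr is its receptor, found mainly on endothelium. Apln had 4.14, 6.58, 3.95, 6.43 and 11.5 CPM in the high-Serpina3n hearts, against 9.39, 16.1, 22.1, 15.4 and 31.0 CPM in the low-Serpina3n hearts. The sets overlapped through replicates 8 and 3 only, and the log2 change was -1.62 ± 0.32 (adjusted p = 0.0261). Aplnr had 28.9 to 52.0 CPM in the high-Serpina3n hearts and 44.3 to 159 CPM in the low-Serpina3n hearts, with overlap at replicate 3 (log2 change -1.17 ± 0.27, adjusted p = 0.0427). These were the 2 members that passed, both lower, of 23 angiogenesis and apelin genes tested, whose median log2 change was -0.11. Endothelial markers as a list stood at 7.14 ± 0.0706 mean log2 CPM in the high-Serpina3n hearts and 7.11 ± 0.0653 in the low-Serpina3n hearts. In bulk tissue fewer cells of a type and less RNA per cell cannot be told apart.

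Nrep, a neuronal regeneration related protein, had 20.4, 22.7, 12.01, 11.4 and 23.4 CPM in the high-Serpina3n hearts and 32.3, 37.5, 46.2, 44.0 and 48.2 CPM in the low-Serpina3n hearts. It did not overlap (log2 change -1.23 ± 0.19, adjusted p = 0.0126), and it stood at 65.3 to 86.4 CPM in tumour-free PBS_REV-ERBa hearts, above all 10 tumour-bearing ones. Rtn4r, the receptor for the axon growth inhibitor Nogo, had 5.57 to 15.3 CPM in the high-Serpina3n hearts and 16.2 to 51.8 CPM in the low-Serpina3n hearts (log2 change -1.86 ± 0.33, adjusted p = 0.0183). Acta2, smooth muscle actin, had 18.2, 43.9, 31.9, 26.7 and 66.2 CPM in the high-Serpina3n hearts, against 48.6, 108, 167, 72.0 and 136 CPM in the low-Serpina3n hearts, with overlap (log2 change -1.56 ± 0.35, adjusted p = 0.0377). It was the 1 member that passed of 10 smooth muscle and pericyte markers tested, and their mean score was 5.86 ± 0.29 log2 CPM in the high-Serpina3n hearts and 5.95 ± 0.239 in the low-Serpina3n hearts. Dbh, dopamine beta-hydroxylase, which makes noradrenaline, had 1.90 to 4.73 CPM in the high-Serpina3n hearts and 4.66 to 14.4 CPM in the low-Serpina3n hearts, with overlap (log2 change -1.45 ± 0.32). It was the 1 of 5 tested Schwann and neuronal markers that passed, and the only 1 with a negative change. The other 4 had a positive change, and the list's median log2 change was 0.255. Their mean score was 1.55 ± 0.418 log2 CPM in the high-Serpina3n hearts and 1.36 ± 0.27 in the low-Serpina3n hearts. Fgf16, a growth factor made by heart muscle, had 10.1 to 26.3 CPM in the high-Serpina3n hearts and 21.7 to 43.8 CPM in the low-Serpina3n hearts (log2 change -1.15 ± 0.23).

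**Figure D3:**
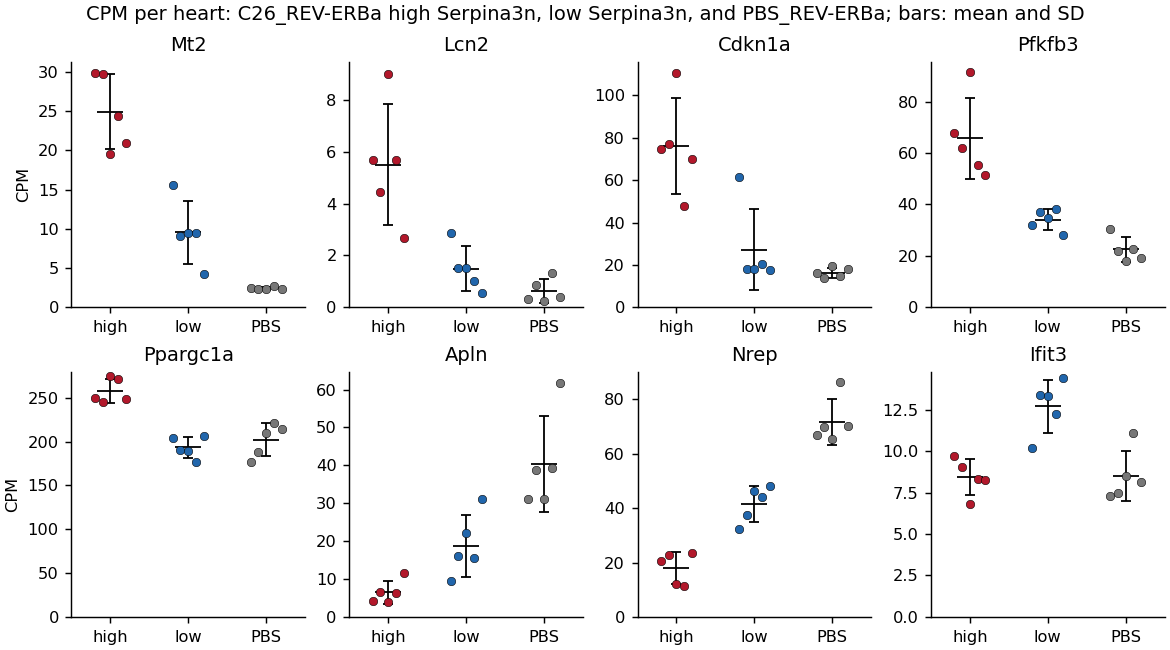
CPM of 8 genes in each high-Serpina3n and low-Serpina3n heart of C26_REV-ERBa and in each tumour-free PBS_REV-ERBa heart, with the mean and SD (linear axis from 0). For Mt2 the high-Serpina3n hearts average 24.9 CPM, the low-Serpina3n hearts 9.58 and the tumour-free hearts 2.41, while for Nrep the order of the averages is 18.0, 41.7 and 71.7 CPM.

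Of 38 genes of lipolysis and fatty acid oxidation tested, 4 were higher and none lower, 29 had a positive change, and the median log2 change was 0.152. Ppargc1a, a coactivator of mitochondrial and fatty acid oxidation genes, had 249.6, 245, 275, 271 and 249 CPM in the high-Serpina3n hearts and 204, 191, 189.6, 176 and 206 CPM in the low-Serpina3n hearts, without overlap (log2 change 0.41 ± 0.06, adjusted p = 0.0126). Lpl, the lipoprotein lipase that frees fatty acids from circulating triglyceride, had a log2 change of 0.46 ± 0.09, Pnpla2, the triglyceride lipase of lipid droplets, 0.54 ± 0.12, and Acot1, a cytosolic acyl-CoA thioesterase, 1.17 ± 0.23. Pnpla2 had 767 to 1092 CPM in the high-Serpina3n hearts and 574 to 858 CPM in the low-Serpina3n hearts, and the sets overlapped. Acot1 had 78.4 to 159 CPM in the high-Serpina3n hearts and 30.6 to 77.2 CPM in the low-Serpina3n hearts, without overlap.

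Of 27 glycolysis and glucose transport genes, 1 was higher and 1 lower. Pfkfb3, which makes the activator of phosphofructokinase, had 67.9, 62.0, 91.7, 55.4 and 51.5 CPM in the high-Serpina3n hearts, against 32.01, 37.2, 34.9, 38.1 and 28.0 CPM in the low-Serpina3n hearts, without overlap (log2 change 0.96 ± 0.14, adjusted p = 0.0126). Pgk1, phosphoglycerate kinase, had a log2 change of -0.30 ± 0.07 (adjusted p = 0.0468). In C26_GFP the change of Pfkfb3 was -0.10 on the log2 scale (adjusted p = 0.857), and the test of the difference between the vector groups gave 1.06 (adjusted p = 0.566).

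Of 54 nuclear genes of oxidative phosphorylation, 1 was lower and none higher, a share near the background of 1.06%. The other 53 did not pass, and over the list 50 changes were negative, with a median log2 change of -0.168. Of the changes of all genes tested, 50.2% were positive. The one that passed was Cyc1, cytochrome c1 of complex III, at 285 to 359.6 CPM in the high-Serpina3n hearts and 382 to 471 CPM in the low-Serpina3n hearts (log2 change -0.40 ± 0.08, adjusted p = 0.0326). Of 24 genes of the citric acid cycle and pyruvate oxidation, Mpc2, a subunit of the mitochondrial pyruvate carrier, was lower (log2 change -0.32 ± 0.07, adjusted p = 0.0402) and 19 had a negative change. The high-Serpina3n hearts also had the slightly lower cardiomyocyte marker score given above, of which 1 of 12 markers, Actc1, passed.

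Of 28 calcium handling and ion channel genes, 2 were lower and none higher, with 23 negative and a median log2 change of -0.16. Over all genes tested 1.06% were lower, and 50.2% of changes were positive. Casq2, calsequestrin, the calcium store of the sarcoplasmic reticulum, had 593, 758, 609, 691 and 779 CPM in the high-Serpina3n hearts and 824, 889, 1000.0, 976 and 1120.0 CPM in the low-Serpina3n hearts (log2 change -0.49 ± 0.10, adjusted p = 0.0269). The sets did not overlap. Hcn4, the pacemaker channel, had 11.4 to 16.2 CPM in the high-Serpina3n hearts and 16.1 to 29.6 CPM in the low-Serpina3n hearts, with overlap at replicate 3 (log2 change -0.77 ± 0.16, adjusted p = 0.0269). Tmem38b, a potassium channel that balances charge during calcium release from the reticulum, was higher, at 97.7 to 128 CPM in the high-Serpina3n hearts and 71.4 to 88.7 CPM in the low-Serpina3n hearts (log2 change 0.55 ± 0.09, adjusted p = 0.0132). It is singled out for its values in C26_GFP below.

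Of 23 sarcomere genes, 1 was higher and 1 lower, and the median log2 change was 0.00. Actc1, cardiac actin, had 1711, 1997, 1814, 2158 and 1865 CPM in the high-Serpina3n hearts and 2300.0, 2738, 3172, 2837 and 3186 CPM in the low-Serpina3n hearts, without overlap (log2 change -0.58 ± 0.10, adjusted p = 0.0183). Myom2, an M-band protein, had 1626 to 2273 CPM in the high-Serpina3n hearts and 1138 to 1632 CPM in the low-Serpina3n hearts, with overlap between replicates 8 and 3 alone (log2 change 0.64 ± 0.12, adjusted p = 0.0259). The list thus had no common direction.

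Proteolysis genes gave 1 or 2 members per list, against a background of 1.06% higher and 1.06% lower over all genes tested. Of 22 ubiquitin ligase and FOXO atrophy genes, Fbxo31, an F-box subunit of an SCF ligase, was higher (log2 change 0.50 ± 0.11, adjusted p = 0.0377) and none lower. Of 26 autophagy and lysosome genes, 2 were higher: Ctsl, the lysosomal protease cathepsin L, with 132 to 176 CPM in the high-Serpina3n hearts and 91.3 to 121 CPM in the low-Serpina3n hearts (log2 change 0.56 ± 0.10, adjusted p = 0.0183), and Bnip3, a mitophagy receptor, with 205 to 333 CPM in the high-Serpina3n hearts and 108 to 181 CPM in the low-Serpina3n hearts (log2 change 0.83 ± 0.15, adjusted p = 0.0183). Neither gene overlapped between the sets.

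Of 29 interferon and antigen presentation genes, Ifit3, an interferon-induced protein, was lower and none was higher, 26 had a negative change, and the median log2 change was -0.16. Among all genes tested 1.06% were lower, and 50.2% of changes were positive. Ifit3 had 9.71, 9.03, 6.80, 8.32 and 8.28 CPM in the high-Serpina3n hearts, against 10.2, 13.4, 13.3, 12.2 and 14.4 CPM in the low-Serpina3n hearts, without overlap (log2 change -0.59 ± 0.13, adjusted p = 0.0368). Tumour-free PBS_REV-ERBa hearts had 7.30 to 11.1 CPM. The high-Serpina3n hearts lay in this range, except replicate 9 below it. Of the low-Serpina3n hearts only replicate 3 lay in it, and the others stood above it. Against PBS_REV-ERBa the interferon list had a median log2 change of 0.166 in the high-Serpina3n hearts and 0.354 in the low-Serpina3n hearts. The macrophage and monocyte score was 3.96 ± 0.146 mean log2 CPM in the high-Serpina3n hearts and 3.94 ± 0.169 in the low-Serpina3n hearts, and none of 14 tested markers passed.

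In the clock, 1 of the 6 genes that REV-ERB proteins repress was higher: Clock, a core activator, with 66.3 to 93.3 CPM in the high-Serpina3n hearts and 48.9 to 64.2 CPM in the low-Serpina3n hearts (log2 change 0.45 ± 0.11, adjusted p = 0.0486). Arntl, its partner, had 0.918 to 5.69 CPM in the high-Serpina3n hearts and 0.556 to 1.91 CPM in the low-Serpina3n hearts (log2 change 1.42 ± 0.45, adjusted p = 0.109), and Npas2 a log2 change of 0.95 ± 0.28 (adjusted p = 0.0928). Of the 6 repressed genes, 5 had a positive change, with a median log2 change of 0.584. In C26_GFP 5 of 6 were positive too, with a median of 0.558. Over all genes tested in C26_REV-ERBa 1.06% were higher, and 50.2% of changes were positive. None of the 12 genes of the PER, REV-ERB and D-box arm passed. The time of day at which hearts were taken was not analysed here.

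The genes whose log2 CPM followed Serpina3n most closely over the 10 hearts were Mt1, Osmr, Mt2, Mylip, Tgfbr2, Tcf23, Ggnbp2 and Sympk, with Pearson's r of 0.98 to 0.94, all among genes with a mean of at least 5 CPM. These correlations describe the choice. Over the 10 C26_GFP hearts r was 0.88 for Mt1, 0.79 for Osmr, 0.87 for Mt2, 0.64 for Mylip, 0.86 for Tgfbr2, 0.77 for Tcf23, -0.24 for Ggnbp2 and 0.56 for Sympk. Tgfbr2, a receptor of transforming growth factor beta, had 205 to 256 CPM in the high-Serpina3n hearts and 146 to 199 CPM in the low-Serpina3n hearts, and at an adjusted p of 0.0539 it did not pass.

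**Figure D4:**
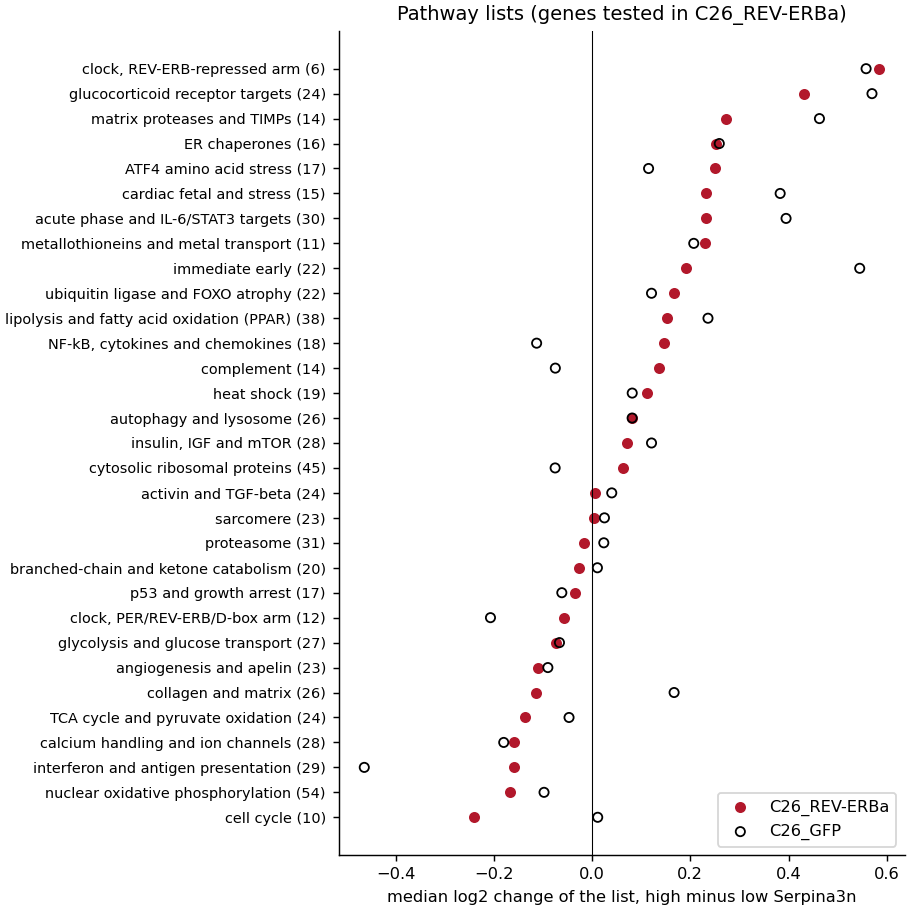
Median log2 change of each pathway list, high-Serpina3n minus low-Serpina3n hearts, in C26_REV-ERBa (filled) and C26_GFP (open), with the number of genes tested in C26_REV-ERBa in brackets. Glucocorticoid receptor targets stand at 0.432 and 0.57, acute phase genes at 0.232 and 0.395, and interferon genes at -0.16 and -0.464.

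The same ranking was then read in C26_GFP, whose hearts did not enter the choice. Its libraries held 5684452 to 8290729 counts in the high-Serpina3n hearts and 6193185 to 16853646 in the low-Serpina3n hearts. The atrial marker Dkk3 had 16.45 to 58.1 CPM in the high-Serpina3n hearts and 261, 18.1, 490, 10.55 and 299 CPM in the low-Serpina3n hearts. Of 5 atrial markers tested there, 3 had a negative and 2 a positive change (median log2 change -1.34), and none passed. The part of depth and atrial tissue was not tested. The C26_GFP split gave 5 higher and 5 lower genes among 12492 tested (0.04% in each direction) and 1990 at an unadjusted p under 0.05, with 443 by DESeq2. The count of 10 became 39, 36, 19 and 21 without C26_GFP replicates 1, 2, 4 and 5, and 6 and 3 without replicates 6 and 10. The 262 genes called in C26_REV-ERBa were all tested there: 253 (96.6%) had the same sign, against 67.3% of all genes tested in both, and 158 (60.3%) had the same sign with an unadjusted p under 0.05, against 13.7% of all genes. None had the opposite sign at that level, against 2.27% of all genes. The median change was 0.298 on the log2 scale for the higher genes and -0.354 for the lower ones, smaller than in the hearts in which they had been selected.

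**Figure D5:**
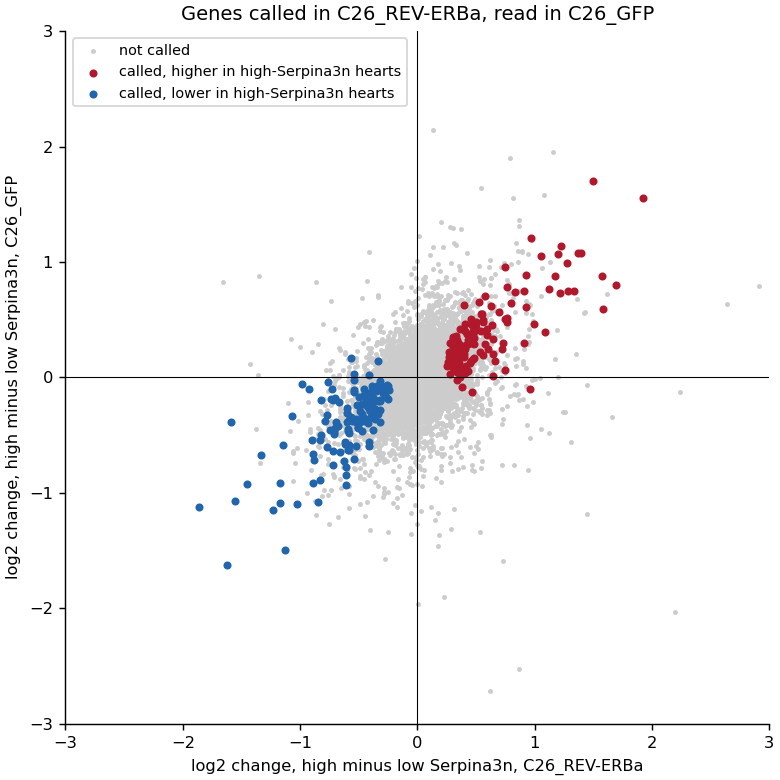
Log2 change of each gene between high-Serpina3n and low-Serpina3n hearts in C26_REV-ERBa (horizontal) and in C26_GFP (vertical); coloured points are the 262 genes called in C26_REV-ERBa and grey points the rest, of which 2 lie outside the axes. Of the coloured genes 253 lie in the lower left and upper right parts of the plot.

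The genes that passed in C26_GFP are given because there were so few, and were picked out for that. The higher ones were Enc1, Sgms1, Etv5, Slc43a2 and Tmem38b, and the lower ones Intu, Igtp, Nrep, Gbp3 and Gbp4. Tmem38b and Nrep had passed in C26_REV-ERBa too, 0.763% of that list of 262 and 20% of the list of 10. Nrep had 4.76, 9.45, 7.23, 8.66 and 10.2 CPM in the high-Serpina3n C26_GFP hearts and 15.2, 18.5, 19.1, 22.5 and 14.6 CPM in the low-Serpina3n C26_GFP hearts (log2 change -1.15 ± 0.18, adjusted p = 0.0394). Tmem38b had 152 to 174 CPM in the high-Serpina3n C26_GFP hearts and 93.7 to 131 CPM in the low-Serpina3n C26_GFP hearts (log2 change 0.55 ± 0.09, adjusted p = 0.0422), the same size as in C26_REV-ERBa.

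Gbp4, Gbp3 and Igtp are guanylate-binding and immunity-related GTPases that interferon gamma induces. Gbp4 had 27.1, 36.0, 41.8, 43.3 and 44.1 CPM in the high-Serpina3n C26_GFP hearts, against 97.2, 96.4, 66.0, 93.8 and 112 CPM in the low-Serpina3n C26_GFP hearts (log2 change -1.27 ± 0.14, adjusted p = 0.00481). In C26_REV-ERBa it ran from 49.9 to 103 CPM in the high-Serpina3n hearts and from 66.6 to 97.5 CPM in the low-Serpina3n hearts, with a log2 change of -0.01 ± 0.16. The test of the difference between these changes gave 1.27 on the log2 scale and, with an adjusted p of 0.252, the lowest adjusted p of all genes. No gene passed that test in either direction (0% of 12665 by edgeR's quasi-likelihood test, with 747 at an unadjusted p under 0.05), so that no gene was shown to follow Serpina3n differently under the REV-ERBα vector. The interferon list as a whole had a median log2 change of -0.464 in C26_GFP, with 27 of 29 negative and Gbp3 and Igtp lower.

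A comparison that shares no library with the ranked hearts, C26_GFP against PBS_GFP, was added after the data had been seen. It gave 1791 higher and 1709 lower genes of 12781 (14% and 13.4%). Of the 131 genes that were higher in the high-Serpina3n hearts, 112 were higher in C26_GFP than in PBS_GFP and 0 lower, and of the 131 lower genes 112 were lower and 0 higher. Their median log2 changes were 0.714 and -0.686. Over both sets 255 genes (97.3%) had the sign of the tumour effect, against 69.9% of all genes. This comparison and the C26_GFP ranking share the C26_GFP hearts, so the 2 readings are not independent of each other.

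Both sets of C26_REV-ERBa hearts were also set against the 5 tumour-free PBS_REV-ERBa hearts, which the 2 contrasts share. The high-Serpina3n hearts had 1151 higher and 1138 lower genes of 12515 (9.2% and 9.09%), and the low-Serpina3n hearts 104 higher and 45 lower (0.831% and 0.36%). The 131 genes higher in high-Serpina3n hearts had a median log2 change of 0.631 from PBS_REV-ERBa in the high-Serpina3n hearts and of 0.14 in the low-Serpina3n hearts, and the 131 lower genes of -0.66 and -0.137. Since these genes were chosen for differing between the 2 sets, the distance between the medians is fixed by the choice. The low-Serpina3n hearts' count ran from 52 without PBS_REV-ERBa replicate 5 to 230 without C26_REV-ERBa replicate 9, and was 68 and 59 without C26_REV-ERBa replicates 3 and 10 and 67 and 73 without PBS_REV-ERBa replicates 2 and 4, against 149 with all hearts.

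Among named genes, some differed from tumour-free hearts in both sets and some in the high-Serpina3n hearts alone at this threshold. Osmr was higher by 1.61 and 1.16 on the log2 scale in high-Serpina3n and low-Serpina3n hearts (adjusted p = 6.9e-08 and 1.2e-05). Mt2 was higher by 3.36 in the high-Serpina3n hearts and by 1.97 in the low-Serpina3n hearts (adjusted p = 1.2e-06 and 0.00336). Nrep was lower in both, with changes of -2.02 in the high-Serpina3n hearts and -0.79 in the low-Serpina3n hearts (adjusted p = 2.0e-06 and 0.0215). For Cdkn1a the change was 2.21 in the high-Serpina3n hearts and 0.71 in the low-Serpina3n hearts (adjusted p = 0.000171 and 0.405). For Bnip3 it was 1.27 in high-Serpina3n and 0.44 in low-Serpina3n hearts (adjusted p = 2.9e-05 and 0.204), and for Casq2 -0.73 in high-Serpina3n and -0.24 in low-Serpina3n hearts (adjusted p = 8.4e-05 and 0.294). For these 3 genes the low-Serpina3n value missed the threshold, which does not show that the low-Serpina3n hearts were like tumour-free ones. The genes of this paragraph had been picked for differing between the 2 sets. The gap between their 2 changes is therefore fixed by the choice, as for the medians.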

How the data were processed

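Hearts of 29 mice were profiled by total RNA sequencing. The deposited file is 1 table of unnormalized read counts for 20411 RefSeq genes, and 1 per-sample column that matched no label was not used. The mm10 build, STAR 2.4.2a and DESeq2 1.24.0 are listed in the submitters' processing notes with no roles. How reads were assigned to genes, and whether by strand, was not given in the sources used here, so overlapping and antisense genes and close copies such as Mt1 and Mt2 are uncertain.

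The members, the gene lists (47 lists, 936 entries of which 930 are in the table) and the named genes were chosen with earlier results of these data known. The text names Nr1d1, the 10 strongest rises and 10 strongest falls that passed with a mean of at least 5 CPM, from each list up to 4 genes of lowest p, and the 8 genes most correlated with Serpina3n; Glul, Plin4 and the 10 genes called in C26_GFP were named after their values were seen. Of the list members, those that passed and the ones the text needs are printed.

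The deposited counts went into edgeR 4.0.16 (R 4.3.3): filterByExpr (minimum count 10, minimum total 15), TMM scaling, a quasi-likelihood test and Benjamini-Hochberg adjustment over all tested genes other than Serpina3n, at 0.05. The standard error is the log2 change divided by the square root of F. CPM are TMM-scaled over 29 libraries, except the Serpina3n values used for ranking. Marker scores are mean log2 CPM (prior count 2) and were compared by exact permutation over 252 arrangements. The procedure was run on simulated counts drawn independently for each gene, so this check does not cover genes that vary together over the hearts. Alternatives included DESeq2 1.42.0, limma 3.58.1 voom, other scaling, filters, covariates and splits, and leaving out each library. The 45 pairs of ranked libraries all differed by more than sampling noise (chi-square over its degrees of freedom at least 4.03). The number of animals, 5 against 5, limits the precision. Promoters were taken by symbol from RefSeq (GRCm38.p6), with its own coordinates. Some single genes are left out of the text.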

Additional observations from a re-analysis of the deposited data

Results flagged for a closer look

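Within each set of 5 C26_REV-ERBa hearts, 80 genes and 17 marker scores were searched for a heart that lay far from the other 4. Such a heart was found in 12 of 194 searches, a share near the 1 in 20 that chance finds. A single flag can therefore be chance. The searches are not independent, since genes can vary together over the same hearts, and 6 of the 12 flags fell on replicate 9. The share thus does not show that all flags are chance. In the high-Serpina3n hearts, replicate 9 was far above the others for Apod (71.0 CPM, next 43.7), Spock2 (93.6 CPM, next 51.9) and Nr4a3 (83.8 CPM, next 23.7), and far below them for Fbxo31 (386 CPM, next 529). The same heart stood apart in the mesothelial marker score (4.17, next 1.26) and in the score of C26 tumour epithelial markers (0.38, next -1.06). The 8 tumour markers were too low for any to be tested. Replicate 2 stood apart for Tcf23 (36.9 CPM, next 28.8).

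In the low-Serpina3n hearts, replicate 3 was far above the others for Cdkn1a (61.6 CPM, next 20.7) and Plin4 (877 CPM, next 607). Replicate 4 stood apart for Hlf, a clock-controlled transcription factor (135 CPM, next 117), and in the Schwann and neuronal score (1.83, next 1.31). Replicate 7 stood apart for Intu, a planar polarity effector (81.9 CPM, next 69.6).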

How the results depend on the processing

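No paired analysis was possible because the ranked hearts belong to 1 labelled group and share no replicate number. The 262 genes called in C26_REV-ERBa became 646 with DESeq2, 449 with limma voom, 552 for the top 4 against the bottom 4, 164 for the top 3 against the bottom 3, 162 with the library total as a covariate, 523 with the hepatocyte score and 753 at an adjusted p under 0.1; leaving out each heart gave 21 to 546. Chosen after the data were seen, leaving out the 4 hearts with an atrial score above 5 gave 3 genes, and leaving out replicates 8 and 9 gave 159. With all 29 libraries in 1 fit there were 239 (101 higher and 138 lower), and other settings gave 207 to 372. The cause of these shifts was not tested. All 262 genes kept their sign in every setting that tested them (251 were tested under the strictest filter). Of 52 named genes that passed, 46, 47, 45 and 47 lost the call without replicates 1, 2, 4 and 7 (highest adjusted p 0.125), and 1 without replicate 3.

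The 10 calls in C26_GFP became 443 with DESeq2, 51 without a filter, 33 and 31 for the top 4 and top 3 against the bottom, and 253 with Serpina3n as a continuous measure; leaving out each heart gave 3 to 39. The difference between vector groups gave 0 under both alternatives. The count of low-Serpina3n hearts against PBS_REV-ERBa was 52 to 230, and that of high-Serpina3n hearts 1747 to 2302, when each library was left out. The count of called genes with the same sign in C26_GFP was 246 to 256, and 192 to 233 changed the same way in C26_GFP against PBS_GFP, out of 224 with all libraries.

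Log2 changes near 0 turned sign. Nr1d1 was -0.0068 with upper quartile scaling, -0.26 and -0.45 for the top 4 and top 3, -0.14 with continuous Serpina3n, -0.17, -0.0080 and -0.12 with library total, atrial and hepatocyte covariates, -0.00012 without replicates 8 and 9, and -0.14 to -0.027 on leaving out replicates 3, 4, 6 or 8. Gbp4 was 0.15 and Igtp 0.12 without the hearts high in atrial markers, and -0.10 to 0.13 (Gbp4) and -0.27 to 0.0030 (Igtp) without single hearts. Etv5 was 0.10 and 0.023 for the top 4 and top 3, 0.037 with continuous Serpina3n, 0.060 with limma voom, 0.019 and 0.011 with library total and atrial covariates, 0.12 without replicates 8 and 9, and -0.10 to 0.074 without single hearts.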

Other observations

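All 16 ER chaperone and stress genes tested had a positive change in the high-Serpina3n hearts, with a median log2 change of 0.253, and 1, Atf6, a stress sensor of the endoplasmic reticulum, passed: it had 315 to 425 CPM in the high-Serpina3n hearts and 245 to 284 CPM in the low-Serpina3n hearts (log2 change 0.41 ± 0.08, adjusted p = 0.0269). Over all genes tested 50.2% of changes were positive, and 1.06% of genes passed as higher. In C26_GFP 14 of the 16 ER genes were positive, with a median of 0.259, against 49.2% positive over all genes. Psat1, an enzyme of serine synthesis, was the 1 of 17 genes of ATF4 amino acid stress that passed, at 7.76 to 10.3 CPM in the high-Serpina3n hearts and 5.14 to 5.77 CPM in the low-Serpina3n hearts, without overlap (log2 change 0.76 ± 0.13, adjusted p = 0.0183).

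Of 14 matrix proteases and their inhibitors, Mmp14 was higher (log2 change 0.46 ± 0.10, adjusted p = 0.0393) and Mmp15 lower (log2 change -0.66 ± 0.13, adjusted p = 0.0269). Of 28 insulin, IGF and mTOR genes, Igf1r, the receptor of insulin-like growth factor 1, was higher, at 173 to 207 CPM in the high-Serpina3n hearts and 134 to 156 CPM in the low-Serpina3n hearts (log2 change 0.37 ± 0.07, adjusted p = 0.0259). Of 24 activin and TGF-beta genes, Acvr2a, an activin receptor, was higher, at 57.1 to 67.5 CPM in the high-Serpina3n hearts and 45.1 to 52.8 CPM in the low-Serpina3n hearts (log2 change 0.36 ± 0.07, adjusted p = 0.0269). These single members stand against a background of 1.06% higher and 1.06% lower over all genes tested. None of 45 cytosolic ribosomal protein genes, 31 proteasome genes, 10 cell cycle genes or 18 cytokine genes passed.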
